A study of Mus musculus with 4 samples.

Results

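The genes described here encode the proteins of the cytoplasmic ribosome. Members were taken by symbol, as Rpl or Rps followed by a number together with Rplp0, Rplp1, Rplp2 and Rpsa, and symbols ending in -ps and the Rps6k kinases were left out. Of 33696 genes in the count matrices, 87 had such a symbol, and the 83 with at least 1000 unique molecular identifiers (UMIs) summed over the 4 libraries were kept. The 4 below that limit were Rpl39l with 192 UMIs, Rpl3l with 146, Rps23rg1 with 15 and Rpl10l with 1, and the lowest members inside it were Rps19bp1 with 6475 and Rpl7l1 with 15621. Those lowest members carry the symbol but are not core subunits, since Rps19bp1 encodes a protein that binds Rps19 and Rpl7l1 encodes a relative of Rpl7. All 83 members passed the filter on low counts in every class comparison given here, so no member was lost from the tests.

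The study fed male C57BL/6J mice the FPC diet (Fructose, Palmitate, Cholesterol and Trans-Fat) and sampled immune cells from the liver by image-guided fine-needle aspiration (FNA) for single-cell RNA sequencing. All groups ate this diet, and its cholesterol content and the week of sampling set them apart. P-LC24 was sampled at week 24 on 0.05% cholesterol and P-HC24 at week 24 on 1.25% cholesterol. I-LC32 was sampled at week 32 after 0.05% cholesterol throughout, and I-HC32 at week 32 after 1.25% cholesterol to week 24 and 0.05% for the last 8 weeks. Each library pooled 12 biopsies, 4 from each of 3 mice, and the same mice gave the week 24 and the week 32 library of their diet. With 1 library per condition, library and condition cannot be told apart, and no test between conditions was possible. Values per library follow a fixed order: first P-LC24, then P-HC24, then I-LC32, last I-HC32.

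After filters, 4930, 6532, 6978 and 6919 cells were kept, with 38509673 to 77017579 UMIs per library and median UMIs per cell of 6298, 7257, 6875 and 8541. Pairs of libraries shared 17 to 41 cell barcodes. Clusters were built without the ribosomal protein genes and named from marker genes. The classes compared were follicular B-like (2097 to 2527 cells per library), B-1-like (661 to 2464), T-like (759 to 1166), NK-like (64 to 246), monocyte-like (93 to 205), large peritoneal macrophage-like (34 to 633) and neutrophil-like (22 to 127). The macrophage-like class was led by Prg4 and Alox15, markers of macrophages of the peritoneal cavity, and all 12 markers listed for it were detected. Of 9 Kupffer cell markers, 5 were detected too, and both lists hold Cd5l, Vsig4 and Timd4. Of 11 monocyte markers, 4 were detected in it, and the 11 together summed to 36243 to 53196 CPM (UMIs of a gene per 1000000 UMIs of the class). In monocyte-like cells 11 of 11 were detected, and they summed to 15827 to 23443 CPM. The paper names its liver macrophages Kupffer cells, and whether this class holds Kupffer cells was not tested. Hepatocyte-like cells numbered 3 to 34 per library and were not compared. The large peritoneal macrophage-like class held 34 cells in P-LC24, and the neutrophil-like class held 32 and 22 cells in the week 32 libraries, so values there rest on few cells. B cell markers were also counted outside the B cell classes. The summed level of 6 B cell markers, none of them at 0, was 4328 to 4803 CPM in follicular B-like cells. It was 31.6 to 411 CPM in the T-like, NK-like, monocyte-like, macrophage-like and neutrophil-like classes. Whether free RNA, remaining doublets or misplaced cells gave these UMIs was not tested.

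A ribosome joins a small subunit, which reads the messenger RNA, to a large subunit, which forms the peptide bond, and each subunit is built from ribosomal RNA and 1 copy of nearly every ribosomal protein. The stalk proteins Rplp0, Rplp1 and Rplp2 recruit the factors that drive elongation. Messenger RNAs of ribosomal proteins begin with a terminal oligopyrimidine (TOP) tract, through which mTOR and Larp1 adjust their translation together. A few genes have close copies: Rps27l, Rpl22l1 and Rpl36al resemble Rps27, Rpl22 and Rpl36a, and Rps27rt is a copy of Rps27 with the form of a retrotransposed messenger RNA.

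The sequences below are shown because they decide which paralogs a short read can separate. In the GENCODE annotation of GRCm39, Rps27 lay on the minus strand at chr3:90119819-90120977 with 4 exons, and Rps27l on the plus strand at chr9:66853340-66856808 with 4 exons. Rps27rt lay on the minus strand at chr9:114811434-114811807 as a single exon, inside the span of Osbpl10 on the opposite strand and over none of its exons. The coding sequences of Rps27 and Rps27l, both 255 bases with the stop codon, are given 5′ to 3′, and capitals in Rps27l mark the bases that differ from Rps27.
Rps27: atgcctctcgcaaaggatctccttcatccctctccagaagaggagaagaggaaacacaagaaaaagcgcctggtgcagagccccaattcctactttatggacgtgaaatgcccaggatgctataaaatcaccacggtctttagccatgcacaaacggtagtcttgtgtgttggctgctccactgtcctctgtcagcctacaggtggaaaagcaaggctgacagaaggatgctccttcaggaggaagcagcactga
Rps27l: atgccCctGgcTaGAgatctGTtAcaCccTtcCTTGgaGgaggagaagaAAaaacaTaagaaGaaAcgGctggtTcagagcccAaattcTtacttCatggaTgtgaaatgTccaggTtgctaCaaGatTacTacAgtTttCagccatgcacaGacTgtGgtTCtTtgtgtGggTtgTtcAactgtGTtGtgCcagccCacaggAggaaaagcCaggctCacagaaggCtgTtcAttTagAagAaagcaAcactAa
The 61 differences left an identity of 76.1%, and 3 of the 84 codons changed their residue. Rpl36al differed from Rpl36a at 39 of 321 bases, with 0 codons that changed a residue.

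The coding sequence of Rps27rt had 0 differences from Rps27 over its 255 bases. The match went on for 32 bases before the start codon and 58 bases after the stop codon, 345 of the 374 bases of the Rps27rt transcript, and the 29 bases that followed were all A. The window from base 44 to base 73 after the stop codon shows where the copies part, with the bases past the match in capitals. It lies at chr3:90119959-90119988 in Rps27 and at chr9:114811448-114811477 in Rps27rt, both on the minus strand.
Rps27 window: gttttggatatataaTGTTTGTCTTGTTTA
Rps27rt window: gttttggatatataaAAAAAAAAAAAAAAA
A read inside the match carries no base that tells Rps27 from Rps27rt, so the split of UMIs between these 2 genes is uncertain wherever it is given. Rpl36al also shared exon bases with Gm49383 on the same strand, and Rpl22l1 with long noncoding genes on the opposite strand.

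Ribosomal protein genes supplied a share of all UMIs that differed several-fold between immune cell classes. The share was 31.6% ± 4.94 in T-like cells, 30.3% ± 3.06 in B-1-like cells and 26.1% ± 2.69 in follicular B-like cells (SD, n = 4 libraries for each class here). It was 20.1% ± 2.21 in large peritoneal macrophage-like cells, 17.4% ± 1.79 in NK-like cells, 16.4% ± 1.11 in monocyte-like cells and 3.66% ± 0.599 in neutrophil-like cells. Follicular B-like cells held 25.6%, 30.1%, 24.6% and 24.3% in the 4 libraries, and macrophage-like cells held 21.7%, 22.3%, 18.6% and 17.8%. The macrophage-like share was the lower one within each of the 4 libraries, with a mean difference of -6.04 ± 1.62 percentage points. The ranges of these classes did not overlap, and P-HC24 gave the highest value in both.

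Every other class also kept 1 direction against follicular B-like cells within all 4 libraries. The share was higher by 4.20 ± 0.933 percentage points in B-1-like and by 5.49 ± 2.45 in T-like cells. It differed by -8.73 ± 0.904 in NK-like, -9.75 ± 1.59 in monocyte-like and -22.5 ± 2.59 in neutrophil-like cells. Each of these differences had p = 0.125 in the two-sided exact permutation test with sign flips, the smallest value that 4 paired libraries allow. B-1-like and T-like cells, neighbours in the order, were not set apart by their spread, with a difference of -1.29 ± 1.99 percentage points (exact permutation p = 0.375, n = 4). NK-like cells stood above monocyte-like cells in 4 of 4 libraries, by 1.01 ± 0.705 percentage points.

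The T-like class joined clusters that were far apart in this measure. The cluster led by the naive T markers Dapl1, Lef1 and Tcf7 held 36.6%, 41.0%, 33.6% and 30.7% ribosomal protein UMIs. The cluster led by Gzmk, Tox, Ccl5 and Pdcd1, genes of activated T cells, held 21.1%, 28.6%, 22.2% and 22.6%. The naive-marker cluster was higher than the activated-marker cluster in 4 of 4 libraries, by 11.9 ± 3.03 percentage points. This is a description with no test, since this split was chosen after values were seen. Another cluster of 962 cells, left unnamed and outside the T-like class, had 9 of 9 T cell markers detected. Of its markers, 4 of 5 for naive and 4 of 8 for activated T cells were detected. It held 34.3%, 38.7%, 31.7% and 32.1%, so T cell clusters did not all follow this split. The activated-marker cluster made up 240 of 759 T-like cells in P-LC24 and 564 of 1166 in I-LC32, so the T-like values mix the clusters in proportions that differ by library.

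**Figure D1:**
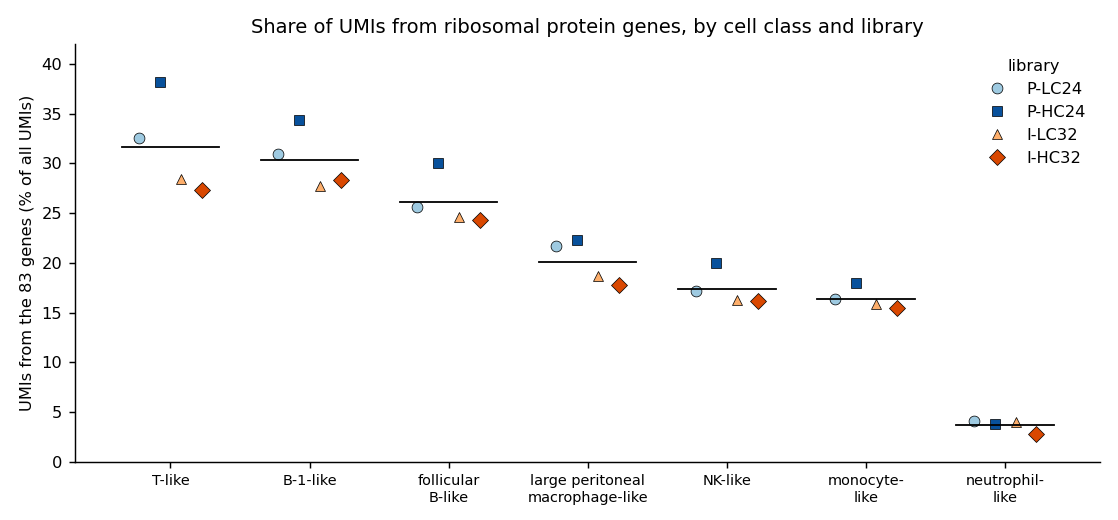
Percent of all UMIs that came from the 83 ribosomal protein genes, for each cell class on the x axis, with 1 symbol per library and a line at the mean over 4 libraries. T-like and B-1-like cells lie near 30%, neutrophil-like cells below 5%, and the P-HC24 symbol is the highest of its class in every class but the neutrophil-like.

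Single genes were compared between classes on UMI counts summed per class and library, with the library as a block, so that p-values measure the spread between these libraries, each a pool. In large peritoneal macrophage-like against follicular B-like cells, 22 members were higher and 16 lower, where 37.0% and 33.6% of all 14712 genes tested were called higher and lower. The median log2 difference of the members was 0.03, and that of all genes was also 0.03. This balance depended on the scaling: with plain CPM, 4 members were higher and 49 lower at a median of -0.32, where 28.2% and 45.2% of all genes were called, and the median of all genes moved to -0.34. The balance also turned when 1 library was left out, to 13 higher and 18 lower without P-LC24, 12 and 18 without P-HC24 and 10 and 29 without I-HC32. These last counts have no share of all genes beside them and describe only how the balance moved. Calls that held under 4 scalings were 2 higher, Rpl10 and Rps27l, and 16 lower.

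Rps27l, which encodes a form of Rps27 known as a target of p53, rose most in macrophage-like cells. Its level was 378, 319, 344 and 248 CPM there and 102, 120, 80.5 and 84.5 CPM in follicular B-like cells. The groups did not overlap, and the log2 difference was 2.08 ± 0.12 (SE, adjusted p = 8.52e-18). Rpl10, which is added late in the maturation of the large subunit, stood at 3269, 3159, 2579 and 3136 CPM against 2274, 2322, 1976 and 2232 CPM. Every macrophage-like value was above every follicular B-like value, with a log2 difference of 0.81 ± 0.15 (adjusted p = 1.34e-05). Rpl22l1 rose by 0.66 ± 0.12 on the log2 scale (adjusted p = 1.34e-05) while its parent Rpl22 differed by -0.11 (adjusted p = 0.348). Both values depend on the scaling, and the Rpl22l1 call was lost on the total without ribosomal protein genes (adjusted p = 0.12).

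Rps27 fell most with its copy Rps27rt in the same contrast. Rps27 was at 3188, 2671, 1851 and 1529 CPM in macrophage-like cells and at 8917, 7635, 5017 and 3716 CPM in follicular B-like cells. Both sets of values went down from P-LC24 to I-HC32, and within each library the follicular B-like value was more than 2-fold higher. The log2 difference was -1.07 ± 0.13 for Rps27 (adjusted p = 3.64e-09) and -1.09 ± 0.10 for Rps27rt (adjusted p = 1.22e-12). Rpl13a, a large subunit protein that also acts in interferon-driven control of translation, differed by -0.68 ± 0.12 (adjusted p = 7.18e-06).

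Monocyte-like cells had lower levels of most of the family. Of the 83 members, 71 were lower and 2 higher than in follicular B-like cells, where 30.7% of all genes were called lower and 29.7% higher. The median of the members was -0.66 against -0.09 for all genes. Rps27l rose by 1.37 ± 0.12 (adjusted p = 1.81e-12), and was at 275, 288, 237 and 219 CPM. Rpl36al, the copy of Rpl36a, was the other member that rose, with 826, 971, 869 and 838 CPM against 654, 740, 597 and 570 CPM in follicular B-like cells. Its values did not overlap between the classes, and the log2 difference was 0.41 ± 0.11 (adjusted p = 0.0015), a call that was lost without I-HC32 (adjusted p = 0.0561), without the library block and with no filter on low counts. Rpl36a itself fell by 1.09 ± 0.13 on the log2 scale (adjusted p = 6.99e-09). The members with the lowest log2 difference were Rpl12, a protein at the base of the stalk, at -1.65 ± 0.14 (adjusted p = 9.27e-13), Rps27rt at -1.53 ± 0.10 and Rps27 at -1.49 ± 0.13. Rpl12 stood at 1025 to 1269 CPM in monocyte-like cells and at 3232 to 3859 CPM in follicular B-like cells, with no overlap.

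B-1-like cells had more of many ribosomal protein transcripts than follicular B-like cells. 60 members were higher and 0 lower by edgeR, where 20.9% of all genes were called higher and 16.8% lower, and the median was 0.40 against -0.01 for all genes. With plain CPM 41 were higher and 1 lower, where 13.8% and 29.4% of all genes were called. Without P-HC24 the count of called members went from 60 to 23, a count with no share of all genes beside it. The stalk protein gene Rplp0 rose most, by 0.98 ± 0.13 (adjusted p = 2.42e-07), with 3594, 5577, 4720 and 5151 CPM in B-1-like and 1850, 3175, 2837 and 3223 CPM in follicular B-like cells. P-LC24 was the lowest library in both classes, and the classes did not overlap. Rps12, a small subunit protein, rose by 0.81 ± 0.13 (adjusted p = 2.74e-06) and Rps27l by 0.81 ± 0.12 (adjusted p = 4.3e-07). The smallest differences that were called were 0.29 for Rpl37a, 0.30 for Rpl30 and 0.31 for Rplp2, all with overlapping classes, and none of them was called with plain CPM or when any 1 library was left out. When an assumed 10% of free RNA with the mean profile of the library was taken off each class, the Rplp0 call was lost too (adjusted p = 0.0702). Median UMIs per cell were 11802 to 11967 in B-1-like and 4862 to 5553 in follicular B-like cells, and the part of this depth in the result was not tested.

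In T-like against follicular B-like cells, 32 members were higher and 1 lower, where 22.9% and 21.5% of all genes were called higher and lower. The median was 0.26 against 0.00 for all genes. Without P-HC24 the count of called members went from 33 to 13, a count with no share of all genes beside it. Rplp0 again rose most, by 0.86 ± 0.13 (adjusted p = 1.22e-06), and reached 3866, 6102, 5081 and 4821 CPM, all above the follicular B-like values. Rpl5, which carries ribosomal RNA into the large subunit and binds Mdm2 when free, rose by 0.62 ± 0.13 (adjusted p = 0.000112), and the stalk protein gene Rplp1 by 0.61 ± 0.14 (adjusted p = 0.00026). With the same free RNA taken off, 17 members were called, also without such a share. Rplp0, Rpl5 and Rplp1 were no longer among them (adjusted p = 0.0982, 0.0562 and 0.213). The smallest rises were 0.27 for Rpl36al and 0.30 for Rpl13a, and both calls were lost when P-LC24, P-HC24 or I-LC32 was left out. Rpl7l1 was the lower gene, at 36.3, 37.4, 44.0 and 51.6 CPM against 57.0, 64.8, 72.1 and 72.3 CPM in follicular B-like cells. It was lower within each library and without overlap, with a log2 difference of -0.66 ± 0.10 (adjusted p = 1.06e-06), and this call held under 4 scalings.

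NK-like cells, lymphocytes like the T-like cells, had less of almost every ribosomal protein transcript. Against follicular B-like cells 81 members were lower and 1 higher, where 20.4% of all genes were called lower and 18.9% higher, and the median was -0.82 against -0.11 for all genes. Against T-like cells 80 were lower and 1 higher, where 14.5% and 13.3% of all genes were called lower and higher, with a median of -1.13 against -0.09. Rps27l was the higher gene in both, by 0.44 ± 0.13 against follicular B-like cells (adjusted p = 0.0048) and by 0.43 ± 0.13 against T-like cells (adjusted p = 0.00995). It was at 172, 187, 137 and 141 CPM in NK-like cells and at 98.0, 108, 89.4 and 90.1 CPM in T-like cells, with no overlap. Its call against T-like cells was lost without P-LC24, without P-HC24, without the library block and with no filter on low counts, at log2 differences of 0.34 to 0.72 over all alternatives, and its call against follicular B-like cells was lost without the block and with no filter.

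Rps19, a small subunit protein whose loss causes Diamond-Blackfan anaemia in people, was the lowest member of both NK-like comparisons. It was at 1524, 2059, 1768 and 1789 CPM in NK-like cells and at 5143, 6801, 4781 and 4422 CPM in T-like cells. Every NK-like library was below every T-like library, and the log2 difference was -1.85 ± 0.11 (adjusted p = 1.06e-15). Against follicular B-like cells it was -1.78 ± 0.11 (adjusted p = 7.43e-16). Against follicular B-like cells it was followed by Rps20, also of the small subunit, at -1.56 ± 0.14 and by Rpl35, which lies near the exit of the peptide tunnel, at -1.26 ± 0.13. Against T-like cells it was followed by Rpl12 at -1.75 ± 0.14 and by Rps20 at -1.59 ± 0.14. Among members called lower, those nearest to 0 were Rpl23a at -0.33 and Rpl36al at -0.38 against follicular B-like cells. Against T-like cells they were Rpl10 at -0.48 and Rpl36al at -0.65. Of these 4 calls, the last held when each library was left out, and the other 3 were lost without P-LC24.

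In neutrophil-like cells all 83 members were lower than in follicular B-like cells, where 35.9% of all genes were called lower and 20.1% higher. The median was -2.76 against -0.99 for all genes. All 83 were still lower with the assumed 10% of free RNA taken off, but the size of the difference was not the same. That step removed 66.2% of the members' UMIs in these cells, left 50 members at 0 in at least 1 library and 11 at 0 in all 4, and moved the median to -4.89. Single-gene values are given before that step unless stated. Rps20 fell most, with a log2 difference of -3.98 ± 0.16 (adjusted p = 2.41e-22), and stood at 365, 378, 295 and 221 CPM where follicular B-like cells had 5401 to 6865 CPM. Rpl36al followed at -3.89 ± 0.17 (adjusted p = 3.91e-21) and Rpl10a, of the mobile stalk where the emptied tRNA leaves, at -3.83 ± 0.17 (adjusted p = 4.99e-21). These 3 genes were among the 11 with 0 UMIs left once free RNA was taken off, so for them no log2 difference can be given after that step. Rps9, a small subunit protein that helps set the accuracy of decoding, was far less reduced. It stood at 2333, 2486, 2518 and 2220 CPM in neutrophil-like cells and at 3415, 4323, 3909 and 4359 CPM in follicular B-like cells, a log2 difference of -0.57 ± 0.13 (adjusted p = 0.000216). Rps27a, whose product is made as a fusion with ubiquitin, differed by -1.11 ± 0.12, and Rpl37, a small protein of the large subunit, by -1.31 ± 0.13. With free RNA taken off, Rps9, Rps27a and Rpl37 stood at -0.82, -1.53 and -1.77, with no library at 0. The 6 B cell markers summed to 80.4 to 318 CPM in these cells.

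**Figure D2:**
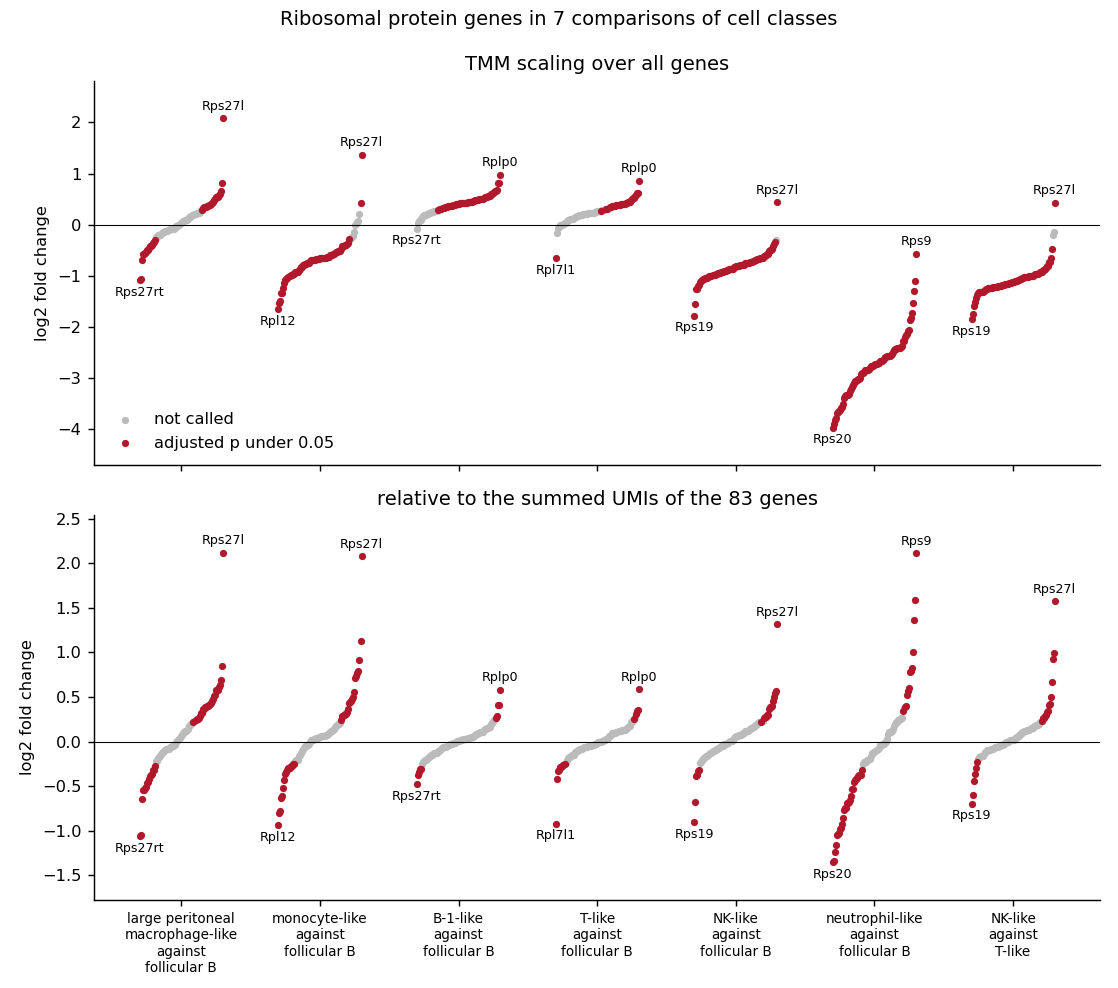
Log2 fold change (y axis) of the 83 genes in 7 comparisons of classes, sorted within each comparison, with TMM scaling over all genes above and relative to the summed UMIs of the 83 genes below. Red points have an adjusted p under 0.05, and Rps27l is the highest point in 4 of the comparisons under both scalings, those of the macrophage-like and monocyte-like classes and both NK-like ones.

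Relative to the total of the 83 genes, the number of members called ran from 10 in B-1-like cells to 45 in macrophage-like cells. Counts scaled to that total called 29 members higher and 16 lower in macrophage-like cells, 21 and 16 in monocyte-like, 5 and 5 in B-1-like, 5 and 9 in T-like, 15 and 6 in NK-like and 13 and 29 in neutrophil-like cells, each against follicular B-like cells. All genes scaled in this way were called higher in 36.9%, 50.5%, 9.43%, 16.2%, 52.6% and 46.0% and lower in 32.7%, 12.1%, 45.5%, 36.8%, 6.55% and 2.62%, in the same order. In NK-like against T-like cells 14 were higher and 6 lower, where 61.1% and 2.97% of all genes were called. On this scale Rps27l was higher by 2.12 in macrophage-like, 2.08 in monocyte-like and 1.32 in NK-like cells, and Rps9 was higher by 2.11, Rps27a by 1.58 and Rpl37 by 1.36 in neutrophil-like cells, all as log2 differences from follicular B-like cells. Rpl36al was higher by 1.13 in monocyte-like cells (adjusted p = 1.52e-12). Small subunit genes together made 44.8% ± 0.267 of the family's UMIs in NK-like cells and 48.6% ± 0.602 in neutrophil-like cells, the ends of the range over 7 classes (SD, n = 4 libraries).

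The members whose share of the family's UMIs ranged most over classes were Rps9, Rps27a, Rps27, Rpl37 and Rps20. Rps9 made 5.64%, 6.62%, 6.38% and 7.96% of ribosomal protein UMIs in neutrophil-like cells and 1.32% ± 0.181 in NK-like cells, its lowest class. Monocyte-like cells came second with 2.17% ± 0.271. Rps27a made 4.22% ± 0.707 in neutrophil-like and 1.39% ± 0.0946 in follicular B-like cells. Rps27 made 3.41% ± 1.12 in neutrophil-like and 1.13% ± 0.266 in macrophage-like cells, and its share was highest in P-LC24 and lowest in I-HC32 in all 7 classes. Rpl37 ran from 1.15% ± 0.292 in T-like to 3.17% ± 0.824 in neutrophil-like cells. Rps20 went the other way, with 2.25% ± 0.0981 in follicular B-like and 0.858% in neutrophil-like cells. Neutrophil-like cells were an end of the range for all 5 genes.

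**Figure D3:**
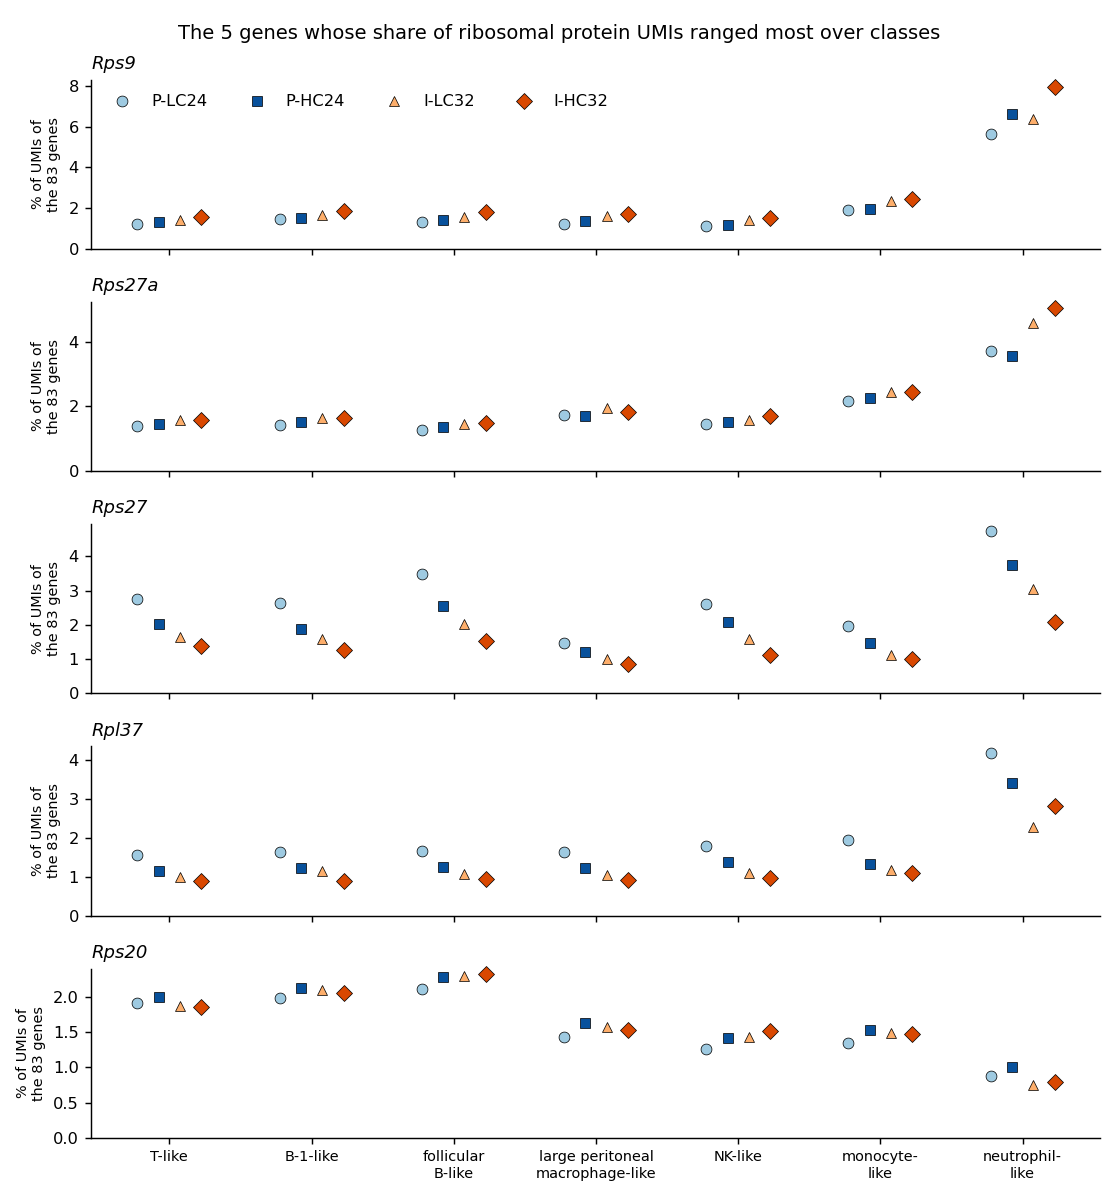
Percent of the UMIs of the 83 genes that came from Rps9, Rps27a, Rps27, Rpl37 and Rps20, for 7 classes on the x axis with 1 symbol per library. The neutrophil-like class is highest for the first 4 genes and lowest for Rps20, and for Rps27 the symbols step down from P-LC24 to I-HC32 within each class.

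Paralogs were compared with their parents as the percent of the pair's UMIs. Rps27l made 10.6%, 10.7%, 15.7% and 14.0% of the UMIs of Rps27l and Rps27 in macrophage-like cells and 7.84%, 9.90%, 11.8% and 12.5% in monocyte-like cells. In follicular B-like cells it made 1.13%, 1.54%, 1.58% and 2.22%, and in T-like cells 1.08%, 1.38%, 1.89% and 2.34%. The macrophage-like and monocyte-like classes stood above both lymphocyte classes in every library, and NK-like cells lay between them at 5.08% ± 1.56.

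Rpl22l1 made 37.0% ± 1.26 of its pair in macrophage-like cells, 31.1% ± 2.37 in NK-like, 29.0% ± 1.53 in T-like, 25.9% ± 2.52 in monocyte-like, 25.6% ± 0.388 in follicular B-like and 24.7% ± 1.01 in B-1-like cells. The macrophage-like range of 35.2% to 38.1% lay above the ranges of the 5 classes just named, and the last 3 overlapped. Rpl36al made 50.7%, 52.1%, 57.6% and 60.9% of its pair in monocyte-like cells, the highest class, and 30.6% ± 2.12 in follicular B-like cells. Neutrophil-like cells gave 21.7% ± 10.2 for Rpl36al, a spread over few UMIs. Rpl7l1 made 1.72% ± 0.348 of its pair in T-like and 3.05% ± 0.316 in monocyte-like cells, the ends of its range.

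Rps27rt differed between libraries and little between classes. In all kept cells it made 1.38% (95% Clopper-Pearson interval 1.34 to 1.42), 2.51% (2.46 to 2.56), 1.62% (1.57 to 1.66) and 1.52% (1.47 to 1.57) of the UMIs of Rps27rt and Rps27, and these intervals cover counting error only. The counts were 4087, 9463, 4207 and 3711 UMIs of Rps27rt beside 292321, 367266, 256261 and 240078 of Rps27. P-HC24 was the library that stood apart, at 2.39% to 2.63% in the T-like, B-1-like, follicular B-like, macrophage-like, NK-like and monocyte-like classes, where the other libraries gave 1.07% to 1.86%. The means of those 6 classes ran from 1.70% ± 0.469 in B-1-like to 1.84% ± 0.441 in NK-like cells, closer together than the spread over libraries. Neutrophil-like cells gave 2.67% ± 0.889 from 2 to 26 UMIs per library.

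**Figure D4:**
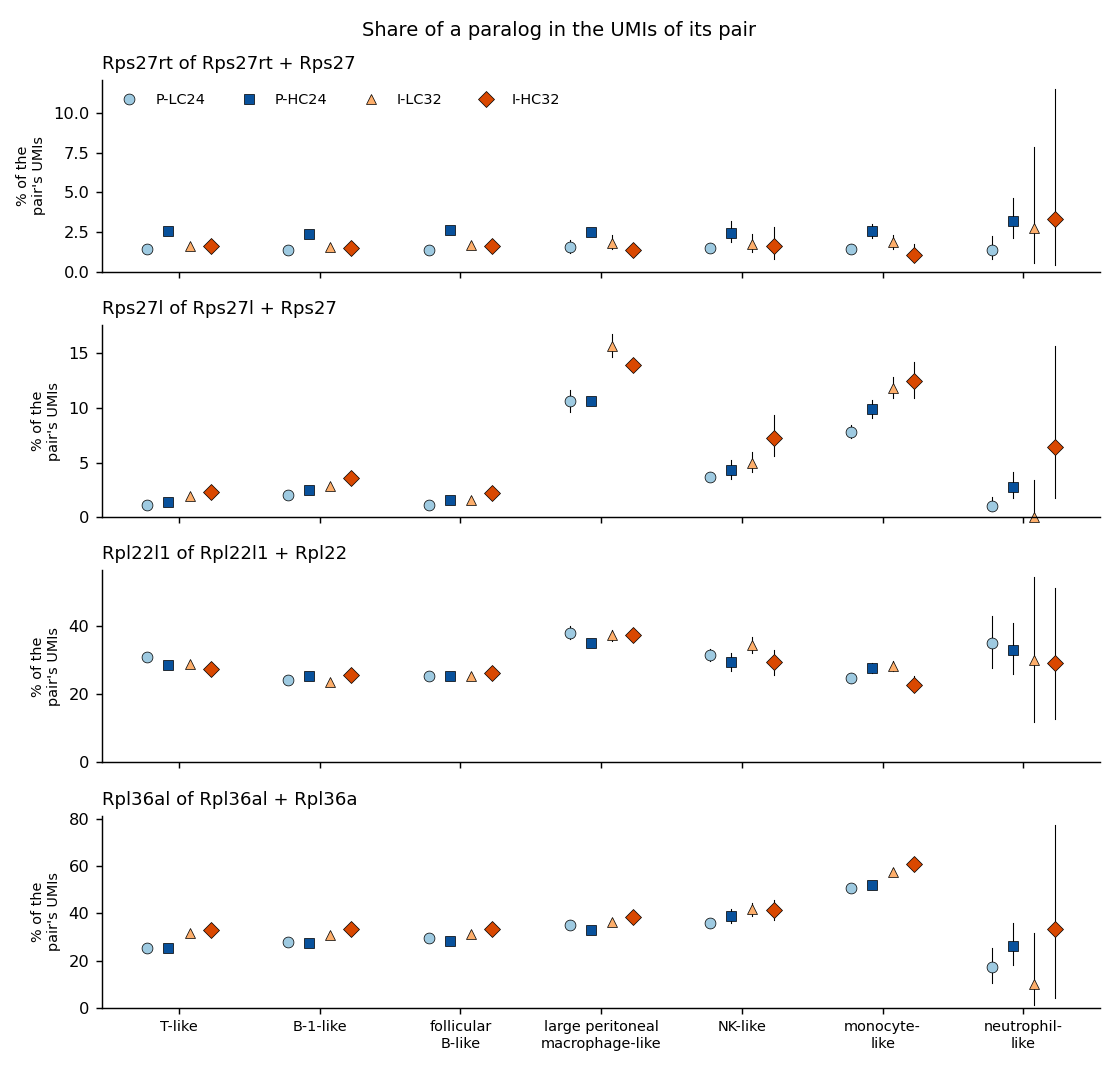
Percent of a pair's UMIs that came from Rps27rt, Rps27l, Rpl22l1 and Rpl36al, by class on the x axis, with 1 symbol per library and 95% Clopper-Pearson intervals as bars. Rps27l is highest in macrophage-like and monocyte-like cells, Rpl36al in monocyte-like cells, and the P-HC24 symbol is the highest for Rps27rt in each class except the neutrophil-like.

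Counts for other genes of the translation machinery depended on the class and on the scaling. They are read against the shares of all genes called higher and lower against follicular B-like cells, which were 37.0% and 33.6% in macrophage-like, 29.7% and 30.7% in monocyte-like, 20.9% and 16.8% in B-1-like, 22.9% and 21.5% in T-like, 18.9% and 20.4% in NK-like and 20.1% and 35.9% in neutrophil-like cells. With plain CPM these shares were 28.2% and 45.2% in macrophage-like, 13.8% and 29.4% in B-1-like and 27.5% and 13.4% in NK-like cells. For NK-like against T-like cells they were 13.3% and 14.5%, and 23.3% and 8.72% with plain CPM. Counts on the total without ribosomal protein genes, here and in the closing section, have no such share beside them. They describe only how a count moved with the scaling.

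The 78 mitochondrial ribosomal protein genes, which build the separate ribosome inside mitochondria, had 55 higher and 3 lower in macrophage-like cells at a median of 0.56, and with plain CPM 35 higher and 16 lower at a median of 0.18. Mrpl33 was the highest of them at 2.50 ± 0.15 on the log2 scale and Mrpl47 the lowest called at -0.40 ± 0.17. Mrpl33 was also the highest called in monocyte-like (2.34), NK-like (1.23) and neutrophil-like cells (3.43). Monocyte-like cells had 32 of the 78 higher and 10 lower, or 22 and 16 on the total without ribosomal protein genes, although 71 of the 83 cytoplasmic members were lower there. In NK-like against T-like cells 1 was higher and 15 lower at a median of -0.08, but with plain CPM 16 were higher and 6 lower at a median of 0.20, so no direction can be given. In neutrophil-like cells 3 were higher and 69 lower.

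Of 36 ribosome biogenesis genes, 28 were higher and 0 lower in B-1-like cells by edgeR at a median of 0.40, among them Npm1, a nucleolar chaperone, at 0.70 ± 0.13, and Polr1a, the large subunit of RNA polymerase I, at 1.22 ± 0.10. With plain CPM 16 were higher and 0 lower. Macrophage-like cells had 13 higher and 7 lower, which turned to 3 and 15 with plain CPM and 3 and 18 on the total without ribosomal protein genes. NK-like cells had 0 higher and 15 lower by edgeR, or 2 and 7 with plain CPM. Monocyte-like cells had 2 and 21, T-like cells 6 and 3, and neutrophil-like cells 1 and 33. On the total without ribosomal protein genes T-like cells had 12 and 1. All 8 elongation factor genes were higher in B-1-like cells, 7 of them with plain CPM, with Eef1a1, which delivers tRNA, at 0.43 ± 0.13 (adjusted p = 0.007). Macrophage-like cells had 5 of the 8 higher and 0 lower, or 4 and 2 with plain CPM, and NK-like cells 2 and 6, or 2 and 2 with plain CPM. T-like cells had 4 and 0, monocyte-like cells 1 and 5, and neutrophil-like cells 1 and 7. Eef2k, a kinase that inhibits the elongation factor Eef2, was the highest of the 8 in macrophage-like cells at 2.56 ± 0.15 and in NK-like cells at 2.83 ± 0.18. It was also the highest called in B-1-like (1.23) and neutrophil-like cells (1.94), and the lowest called in monocyte-like cells (-2.11).

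Of 34 initiation factor genes, 23 were higher and 2 lower in macrophage-like cells. With plain CPM 10 were higher and 6 lower, and on the total without ribosomal protein genes 6 and 10. Eif4ebp1, an inhibitor of cap-dependent initiation, was at 2.21 ± 0.14 in macrophage-like cells. It was also higher in monocyte-like (2.26), neutrophil-like (2.95) and B-1-like cells (0.69), and lower in T-like (-1.61) and NK-like cells (-0.97). In NK-like cells 1 was higher and 11 lower, which turned to 10 and 4 with plain CPM. B-1-like cells had 15 and 0, or 6 and 3 with plain CPM, and neutrophil-like cells 2 and 28. The 9 higher and 4 lower in monocyte-like and the 7 and 2 in T-like cells did not exceed the shares of all genes called there. On the total without ribosomal protein genes monocyte-like cells had 6 and 8.

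Of 18 other TOP messenger RNAs, 12 were higher and 2 lower in macrophage-like cells, but 4 and 4 with plain CPM and 1 and 4 on the total without ribosomal protein genes. They were 13 and 0 in B-1-like, 10 and 0 in T-like, 1 and 9 in monocyte-like and 0 and 18 in neutrophil-like cells, and 0 and 15 in NK-like cells, or 1 and 8 with plain CPM. Fau and Rack1, ribosomal proteins whose symbols lie outside the rule, were both lower in monocyte-like, NK-like and neutrophil-like cells. Among 12 regulators, Myc, a driver of ribosome production, was the lowest called in monocyte-like cells at -3.44 ± 0.28 and in NK-like cells at -2.04 ± 0.27. The same held in neutrophil-like cells, at -3.53 ± 0.57. Larp1 differed by -0.16 ± 0.12 in macrophage-like cells (adjusted p = 0.253), or by -0.51 with plain CPM. It was called higher in B-1-like (0.45) and T-like cells (0.35), lower in neutrophil-like cells (-3.03), and not called in monocyte-like or NK-like cells. Mtor was the lowest regulator called in macrophage-like cells, at -0.68 ± 0.15. In macrophage-like cells 3 regulators were higher and 5 lower, in monocyte-like cells 4 and 5, in T-like 4 and 5 and in neutrophil-like cells 3 and 6. They were 4 and 0 in B-1-like cells, or 3 and 4 with plain CPM, and 1 and 4 in NK-like cells, or 3 and 3.

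Libraries of 1 week were compared by the ratio of CPM, and counts past 1.2-fold describe 1 library against another. In all kept cells, P-HC24 over P-LC24, 43 members were higher and 7 lower, where 16.5% of 7069 genes were past that fold upward and 47.5% downward. The median log2 ratio of the members was 0.27 and that of all genes was -0.23. In follicular B-like cells alone 47 were higher and 5 lower, where 14.0% and 40.0% of all genes were past that fold. The T-like, B-1-like, NK-like and monocyte-like classes had 35 to 48 higher and 4 to 11 lower. Of all genes compared, 842 were higher and 3076 lower of 6560 in T-like and 1009 and 3155 of 7732 in B-1-like cells. In NK-like cells these were 728 and 1488 of 3789, and in monocyte-like cells 1010 and 2080 of 5398. Macrophage-like cells, 34 of them in P-LC24, had 17 higher and 14 lower, where 21.4% and 36.9% of all genes were past that fold. Neutrophil-like cells had 6 higher and 20 lower of 78 compared at a median of -0.10, where 21.7% and 25.8% of all genes were. Over all kept cells, the summed shares of the family in the 4 libraries were 26.5%, 30.1%, 25.3% and 24.9%. For I-HC32 over I-LC32, 4 members were higher and 6 lower, where 13.4% and 12.2% of 7741 genes were past 1.2-fold, and the medians were 0.01 for members and -0.01 for all genes. In follicular B-like cells 3 were higher and 5 lower, where 12.5% and 6.62% of all genes were past that fold. In neutrophil-like cells 22 members were compared, and 0 were higher and 16 lower, where 16.8% and 53.1% of all genes were. Of 72 mitochondrial ribosomal protein genes compared in all kept cells, 32 were higher and 3 lower in P-HC24 over P-LC24, and 7 of 76 were higher and 1 lower in I-HC32 over I-LC32.

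The genes at the ends of the P-HC24 over P-LC24 order had different sizes. Rplp0 went from 2688 to 4368 CPM, a log2 ratio of 0.70 (95% interval 0.69 to 0.71). It was followed by Rpl14 at 0.68, Rpl3, which lies close to the site of peptide bond formation, at 0.68, Rps6, the target of S6 kinase, at 0.64 and Rps2 at 0.60. At the other end, Rps28 went from 5056 to 3696 CPM, a log2 ratio of -0.45 (-0.46 to -0.44), followed by Rpl35 at -0.44, Rps29 at -0.43, Rpl38 at -0.39 and Rps27 at -0.38. Of 81 members compared in 6 classes, without the neutrophil-like, 53 were higher in P-HC24 in all 6 and 14 were lower in all 6, where 14.5% and 38.0% of the 3173 genes compared in all 6 were. Rpl35, Rpl38, Rps27, Rps28 and Rps29 were among those 14.

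For I-HC32 over I-LC32 the lowest members were Rps27rt, from 68.2 to 48.2 CPM at a log2 ratio of -0.50 (-0.57 to -0.44), and Rps27, from 4156 to 3117 CPM at -0.42. Rpl39 at -0.29, Rpl37 at -0.28 and Rps21 at -0.26 followed. The highest in all kept cells were Rps15 at 0.36 (0.35 to 0.37), Rpl23a at 0.34, Rpl5 at 0.33, Rpl10 at 0.31 and Rps27l at 0.18. Within single classes Rps27l stood at -0.47 in macrophage-like and -0.11 in monocyte-like cells. It was at 0.01 to 0.07 in T-like, B-1-like, NK-like and follicular B-like cells. Macrophage-like cells, the class richest in Rps27l, numbered 74 for I-LC32 but 633 for I-HC32. The part of class makeup in its pooled value was not tested. Of 80 members compared in the same 6 classes, 12 were higher in I-HC32 in all 6 and 22 were lower in all 6, where 6.01% and 9.60% of 2114 genes were.

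The coding length of a member went with its ratio between libraries. Across the 83 genes, Spearman's rho between coding length and log2 ratio was 0.67 for P-HC24 over P-LC24 and 0.70 for I-HC32 over I-LC32. Within the 6 classes it was 0.63 to 0.70 and 0.65 to 0.76, and in neutrophil-like cells 0.51 and 0.16. These are correlations across genes, which share libraries and are not independent replicates, and genes outside the family gave -0.51 and -0.14, or -0.27 and 0.01 within the range of coding lengths that the members span. The 27 members of shortest coding length, 138 to 405 bases, had a median log2 ratio of 0.01 and -0.18 in these comparisons. The 27 longest, 582 to 1257 bases, had 0.42 and 0.08, while other genes of those lengths had 0.18 and -0.02 for the short and -0.04 and 0.03 for the long.

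The same order held over all 4 libraries. The 27 shortest members supplied 36.9%, 31.0%, 28.7% and 25.8% of the family's UMIs, and the 27 longest supplied 26.3%, 30.9%, 32.6% and 35.2%. Each of the 7 classes gave the same order of libraries for the short genes, with ranges over classes of 36.1% to 37.6%, 30.5% to 32.5%, 27.9% to 29.4% and 25.5% to 26.6%. Median UMIs per cell in these libraries were 6298, 7257, 6875 and 8541. The part of depth, library preparation and diet in this order was not tested, and with 1 library per condition they cannot be told apart.

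**Figure D5:**
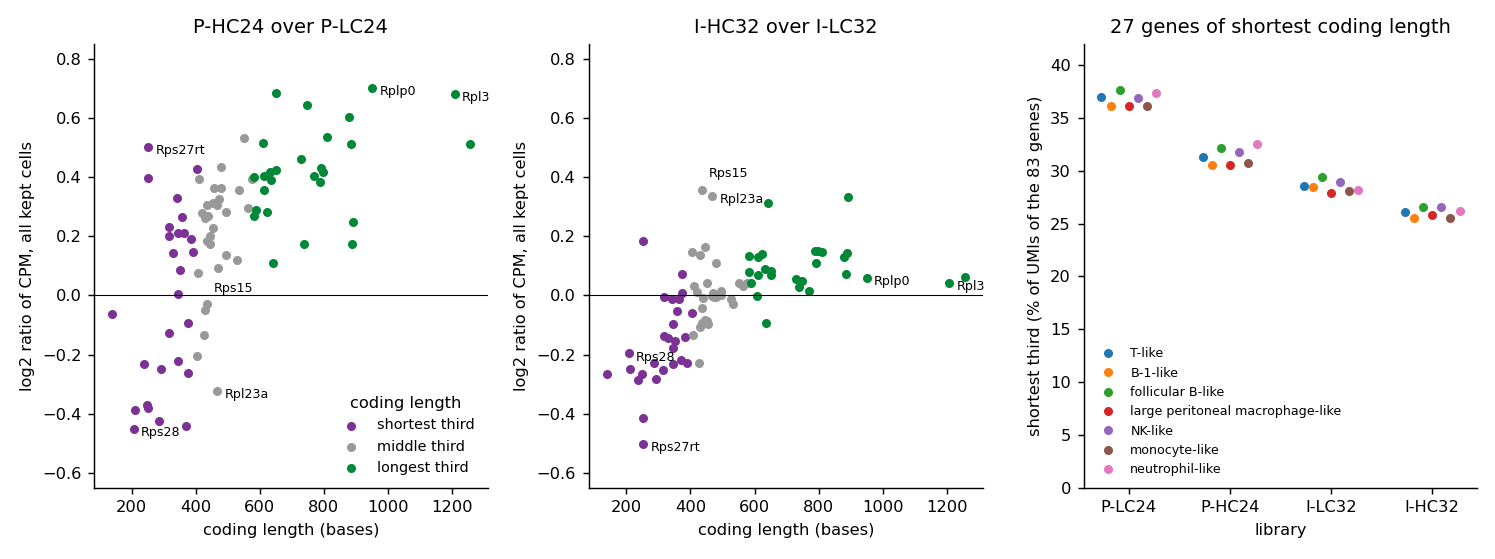
Log2 ratio of CPM in all kept cells against coding length in bases for the 83 genes, for P-HC24 over P-LC24 and for I-HC32 over I-LC32, coloured by length group, and on the right the percent of the family's UMIs from the 27 shortest genes by class and library. Short genes lie lower than long ones in both library pairs, and the classes lie on top of each other in the right panel, from 36.1% to 37.6% in P-LC24 to 25.5% to 26.6% in I-HC32.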

How the data were processed

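Raw UMI counts of 4 libraries, as the authors deposited them, were the only values used. They came from Cell Ranger 9.0.1 and GRCm39. The members and gene lists were chosen with earlier results of these data known. Cells with at least 500 UMIs, at least 300 genes and at most 10% mitochondrial UMIs were kept, and the Scrublet scores of scanpy 1.11.5 removed 0.8% of cells per 1000 as doublets. Counts were normalized with sctransform 0.4.2 in Seurat 5.3.0, integrated by an own implementation of the Harmony algorithm, whose settings were chosen on cell type markers, and clustered without ribosomal protein genes. Clusters were named from marker lists, and those led by genes of no list, or of another type than their markers, were left unnamed.

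UMIs were summed per class and library and tested with the quasi-likelihood F test of edgeR 4.0.16 in R 4.3.3, with TMM scaling, the library as a block and Benjamini-Hochberg adjustment over 14712 genes in 34 sums, called at an adjusted p under 0.05. Class names did not use the ribosomal protein genes. The test was checked on simulated data. Other scalings were DESeq2 1.42.0, plain CPM, the total without ribosomal protein genes and the total of those genes. P-values measure how class differences vary between libraries of pooled biopsies, and the same mice gave both libraries of a diet. Ratios between libraries have 95% Poisson intervals that cover counting error only, and a gene was compared if 10% of the cells in 1 of the libraries had it and if both together gave 100 UMIs or more. Coding length groups and the split of T-like clusters were chosen after values were seen.

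Genes named in the text were paralogs with symbols ending in rt, l or l1 and their parents, the 3 highest and 3 lowest called members of each class comparison, the 5 highest and 5 lowest of each library comparison, the 5 whose share of ribosomal protein UMIs ranged most over classes, and of other lists the most abundant, highest and lowest called gene. Rpl22 and Rpl36a entered as parents. Some genes that these rules pick are not reported here. Coordinates, coding lengths and sequences came from the canonical transcripts of the GENCODE M39 annotation on GRCm39. The remaining steps ran in Python 3.11.15 with pandas 2.3.3, numpy 2.4.6, matplotlib 3.10.9 and scipy 1.17.1.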

Additional observations from a re-analysis of the deposited data

Results flagged for a closer look

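Members past 1.2-fold in both pairs of libraries but in opposite directions were Rpl23a and Rps27rt, and this difference was not tested, since each condition has 1 library. The log2 ratio of Rpl23a was -0.32 for P-HC24 over P-LC24 and 0.34 for I-HC32 over I-LC32. The log2 ratio of Rps27rt was 0.50 for P-HC24 over P-LC24 and -0.50 for I-HC32 over I-LC32, and its counts share sequence with Rps27.

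Signal outside the 83 members was counted in symbols that the rule left out. Rpl10-ps3 had 6530 UMIs and Rpl9-ps6 had 10194 UMIs over the 4 libraries, both above the minimum but with a pseudogene symbol. Rpl39l had 192 UMIs, Rpl3l had 146 and Rps23rg1 had 15, under the minimum of 1000.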

How the results depend on the processing

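Of 912 alternative values of 57 single-gene differences, 799 kept their side of the threshold, 113 lost the call and 0 reversed. Of 182 alternatives to counts and shares, 151 stayed close and 31 moved. A total of called members has no direction, so it was also asked which of higher and lower was more frequent, and this turned in 18 of 159 alternatives to counts. Counts below are members called against follicular B-like cells, and the cause of a move was not tested. Many of these settings have no share of all genes beside them. There, counts here and in the next paragraph describe only how a count moved. Macrophage-like cells had 38, with 58 on the total without ribosomal protein genes, 14 without the library block and 30 to 39 without 1 library. Their 22 higher and 16 lower became 4 and 49 with plain CPM, 2 and 56 on the total without ribosomal protein genes, 5 and 26 with no filter on low counts, 13 and 27 at a mitochondrial limit of 5%, 24 and 25 with only the 2 classes in the fit, 13 and 18 without P-LC24, 12 and 18 without P-HC24 and 10 and 29 without I-HC32. Of the other turns, 8 came with the total of ribosomal protein genes, and 2 with the mitochondrial limit of 5%, where I-HC32 over I-LC32 gave 6 higher and 2 lower in all kept and in follicular B-like cells. Scaling to the total of ribosomal protein genes took monocyte-like cells from 73 to 37, B-1-like from 60 to 10, T-like from 33 to 14, NK-like from 82 to 21, neutrophil-like from 83 to 42 and NK-like against T-like from 81 to 20. B-1-like cells had 29 with no filter on low counts, 11 without the block, 23 at a mitochondrial limit of 5% and 28 with free RNA taken off. T-like cells had 69 with DESeq2, 64 on the total without ribosomal protein genes, 20 with no filter on low counts, 6 without the block, 17 with free RNA taken off, 18 with no doublet removal and 53 with only the 2 classes in the fit. Leaving out 1 library gave 72 to 75 called in monocyte-like, 23 to 51 in B-1-like, 13 to 41 in T-like, 80 to 82 in NK-like and 83 in neutrophil-like cells, 79 to 81 in NK-like against T-like cells, and a share difference of -6.75 to -5.45 percentage points in macrophage-like cells. The lowest B-1-like and T-like counts came without P-HC24.

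Of the 50 members past 1.2-fold in all kept cells for P-HC24 over P-LC24, 5 passed 1.5-fold, and 27 passed 1.2-fold on the total of ribosomal protein genes. In follicular B-like cells these were 52, 7 and 27. For I-HC32 over I-LC32, 0 of 10 passed 1.5-fold in all kept cells and 0 of 8 in follicular B-like cells, where 14 passed 1.2-fold relative to the median gene, 14 with the mean over cells and 13 with no integration. The Rps27rt share in P-HC24 was 2.57% at a mitochondrial limit of 5%. The smallest class sums rest on 22 to 34 cells, which limits single genes there.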
